A study of Mus musculus with 2 samples.

Results

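The 8 genes described here encode Krüppel-like factors, which were chosen as a named list (Klf2, Klf3, Klf4, Klf6, Klf7, Klf9, Klf10 and Klf13) from 55536 named genes, of which 22028 were protein coding. The rule uses symbols and no threshold on a measured value. All 8 symbols matched 1 protein-coding gene each in both programs that had quantified the libraries. The RNA came from macrophages that had been grown from bone marrow of C57BL/6J mice. These cells received 100 ng/ml lipid A, the part of bacterial lipopolysaccharide that Toll-like receptor 4 recognises, for 12 h, then had 12 h without it, and then received 100 ng/ml again for 75 min. RNA of the chromatin fraction, in which transcripts still attached to their template are enriched, had its ribosomal RNA removed and was sequenced in 2 libraries. The labels give both libraries as biological replicates of this 1 condition with 1 shared donor entry, 250 ng of RNA at the start for replicate 1 and 500 ng for replicate 2, and no age or sex. No unstimulated sample was analysed here, so the values are levels in stimulated cells and the spread between 2 samples, which may in part be technical.

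Krüppel-like factors are transcription factors whose zinc fingers, at the end of the protein, bind GC-rich elements such as GC boxes and CACCC boxes. The part ahead of the fingers differs between members and recruits either coactivators or corepressors. Klf2 and Klf4 restrain or direct inflammatory gene expression in myeloid and endothelial cells, Klf6 is an early response gene that acts with NF-κB in macrophages, and Klf7 is its closest relative. Klf3 recruits the corepressor CtBP, whereas Klf9, Klf10 and Klf13 bind the corepressor Sin3a, and Klf10 was first known as a gene induced by transforming growth factor β.

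The fingers are shown first because they are what the members have in common. In the main coding isoform of each gene, the stretch from the first cysteine of the first finger to the last histidine of the third covered 243 coding bases, with 3 fingers in all 8 genes. Across the 8 genes 86 of the 243 bases (35.4%) were identical, and the 28 pairs shared between 57.2% and 81.1% of the bases. Klf6 and Klf7 were the closest pair at 81.1%, followed by Klf2 and Klf4 at 78.2%, while Klf9 and Klf13 shared 72.8%, as did Klf3 and Klf6. The sequences of 2 of these pairs are shown, whose levels differ widely within each pair (given further on), with capitals for the 2 linkers of 21 bases that join the fingers.
Klf6: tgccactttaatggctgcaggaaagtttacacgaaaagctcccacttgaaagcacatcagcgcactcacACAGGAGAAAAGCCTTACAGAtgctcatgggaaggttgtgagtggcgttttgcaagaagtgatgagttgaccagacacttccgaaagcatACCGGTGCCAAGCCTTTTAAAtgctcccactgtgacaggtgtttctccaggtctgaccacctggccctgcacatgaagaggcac
Klf7: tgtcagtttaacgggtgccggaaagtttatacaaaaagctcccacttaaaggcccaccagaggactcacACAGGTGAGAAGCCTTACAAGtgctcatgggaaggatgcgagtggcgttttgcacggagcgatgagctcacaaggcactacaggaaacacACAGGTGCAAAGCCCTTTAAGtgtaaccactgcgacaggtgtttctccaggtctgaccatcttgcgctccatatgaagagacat
Klf9: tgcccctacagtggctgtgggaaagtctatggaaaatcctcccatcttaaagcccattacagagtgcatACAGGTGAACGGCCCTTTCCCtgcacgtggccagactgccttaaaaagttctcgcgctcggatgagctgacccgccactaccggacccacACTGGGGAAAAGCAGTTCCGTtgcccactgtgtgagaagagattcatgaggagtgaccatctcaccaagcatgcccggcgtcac
Klf13: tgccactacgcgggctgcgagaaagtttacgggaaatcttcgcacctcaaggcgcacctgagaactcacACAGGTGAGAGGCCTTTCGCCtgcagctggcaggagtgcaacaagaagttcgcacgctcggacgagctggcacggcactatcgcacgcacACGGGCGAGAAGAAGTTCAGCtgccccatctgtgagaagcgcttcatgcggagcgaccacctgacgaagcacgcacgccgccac
They are coding strands of the mm10 reference. The longest run of bases that any isoform of 1 member shared exactly with any isoform of another was 36 bases, between Klf3 and Klf13, and the median over the 28 pairs was 16 bases.

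The libraries held 18445009 and 17686824 expected counts in the alignment-based tables and 32830001 and 30388561 estimated counts in the alignment-free tables. All 6 macrophage marker genes checked were at 1 TPM or more in both libraries, and their summed level was 910 TPM in replicate 1 and 469 TPM in replicate 2. TPM is a level per transcript length, scaled to a fixed sum over each library. Of the markers of other cells, 0 of 4 T cell, 0 of 3 B cell, 0 of 5 neutrophil, 0 of 3 erythroid and 0 of 3 fibroblast genes reached 1 TPM in both libraries. Of the 5 endothelial genes 1 did, the receptor gene Kdr at 3.09 and 4.29 TPM, while Pecam1 was at 1.07 and 0.70 TPM and Cdh5, Tek and Emcn were at or under 0.05 TPM. In the alignment-free tables Cd3d, 1 of the 4 T cell genes, was listed at 15.5 and 20.1 TPM against 2 and 0 expected counts in the alignment-based table. By that program 1 gene each of the T cell, B cell (Ms4a1), neutrophil (Mpo) and fibroblast (Col1a1) lists and 2 endothelial genes (Kdr and Pecam1, the latter at 7.198 and 8.956 TPM) were at 1 TPM or more in both libraries.

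Of the 8 factors, 4 were at 10 TPM or more in both libraries (Klf6, Klf3, Klf7 and Klf13), compared with 17.9% of all protein-coding genes. A further 2, Klf10 and Klf2, lay between 1 and 10 TPM, and 2, Klf4 and Klf9, were under 1 TPM in both. Thus 6 of 8 were at 1 TPM or more in both libraries, compared with 40.1% of protein-coding genes. Since the RNA was taken in bulk, fewer cells that transcribe a gene and less of its RNA per cell cannot be told apart.

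**Figure D1:**
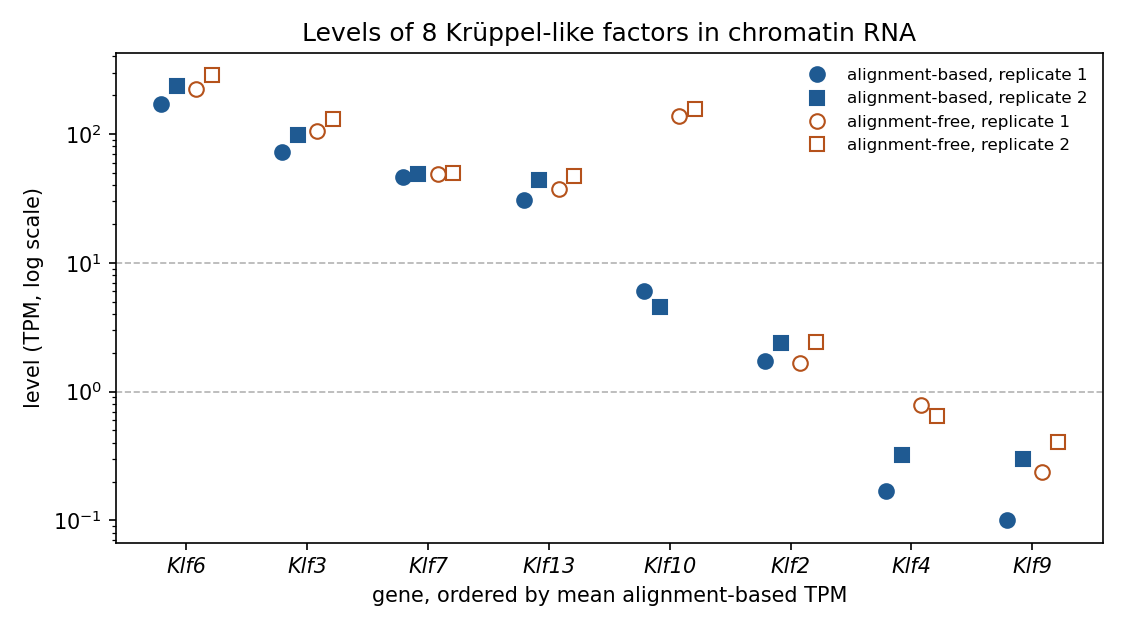
Level of each factor in TPM (log axis) in replicate 1 (circles) and replicate 2 (squares), from the alignment-based tables (filled) and the alignment-free tables (open), with dashed lines at 1 and 10 TPM. The alignment-based levels fall from 235 TPM for Klf6 to 0.10 TPM for Klf9, and Klf10 has the widest gap between the programs, at 6.03 and 4.52 against 138 and 156 TPM.

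Among the members that act mainly as activators, Klf6 had the highest level of the 8, with 171 and 235 TPM in replicates 1 and 2, from 8092 and 11383 expected counts. It contributed 52.0% and 54.1% of the summed TPM of the 8 factors, and its mean exceeded that of 97.8% of the 9615 protein-coding genes that reached 1 TPM in at least 1 library. Its closest relative Klf7 was at 46.2 and 49.2 TPM (3363.59 and 3600.27 counts), the narrowest spread of the 8 genes relative to its level. Klf2 was at 1.72 and 2.37 TPM, from 47 and 59 counts. Klf4, which was detected in both libraries, was at 0.17 and 0.32 TPM, from 6 and 14 counts. The pair of factors best known for setting the inflammatory state of myeloid cells thus had low levels, at means of 2.04 TPM for Klf2 and 0.245 TPM for Klf4 against 203 TPM for Klf6. The mean of Klf4 was 0.65 TPM by the posterior mean estimate and 0.719 TPM in the alignment-free tables.

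Among the repressors, Klf3 was the highest, with 72.3 and 98.3 TPM (4137.6 and 4758.8 counts). Klf13 was at 30.9 and 44.2 TPM, from 655 and 820 counts. In the alignment-based tables Klf10 was the single member with the lower level in replicate 2, at 6.03 and 4.52 TPM (225 and 174 counts). In the alignment-free tables Klf10 was higher in replicate 2, at 138 and 156 TPM. There Klf4 was the single lower member, at 0.792 and 0.647 TPM. By alignment-based values Klf9 was at 0.10 and 0.30 TPM, from 7 and 15 counts. Its fingers resemble those of Klf13, which was at 37.6 ± 9.41 TPM (SD, n = 2). Repressors and activators were therefore both found at the top and at the bottom of the order.

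The order from Klf6 through Klf3, Klf7, Klf13, Klf10, Klf2, Klf4 and Klf9 was the same in both libraries. The values of neighbours in this order did not overlap down to Klf4, and the narrowest gap as a ratio was that between Klf7, at no less than 46.2 TPM, and Klf13, at no more than 44.2 TPM. Klf4 and Klf9 overlapped and did not differ beyond their spread. In the alignment-free tables the order was the same except for Klf10, which stood second, between Klf6 at 224 and 286 TPM and Klf3 at 105 and 130 TPM.

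The genes differed in how much of their level belonged to isoforms annotated as keeping intron sequence. Retained-intron isoforms, an annotation class of transcripts in which part of an intron is read as exon, are annotated for 3 of the 8 genes. They took 86.8 ± 0.468% (SD, n = 2) of the TPM of Klf13, 66.4 ± 7.76% of that of Klf3 and 29.6 ± 7.21% of that of Klf6. Klf13 and Klf3, 2 of the 3, were thus above 50%, compared with 41.8% of the 5998 protein-coding genes that have such an isoform and a mean of 1 TPM or more, whose median share was 45.1%. By share of counts Klf13 was under 50%, at 48.9%, where the median of those genes was 28.4%. In alignment-free TPM Klf3 was under 50%, at 39.2%, where their median was 44.5%. By alignment-based TPM, Klf13 had a larger share than 97.3% of those genes, Klf3 than 81.7% and Klf6 than 27.3%. Since the RNA is of the chromatin fraction, reads given to this class cannot be told apart from intron reads of transcripts not yet spliced. For the 5 other members no isoform of this class is annotated, so the class could not show in their tables. Isoforms annotated as coding can also hold intron bases of the main isoform. Klf7-201 has 388 of its 1477 bases there and held 44.6% of the Klf7 TPM, and Klf10-204 has 178 of 326.

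**Figure D2:**
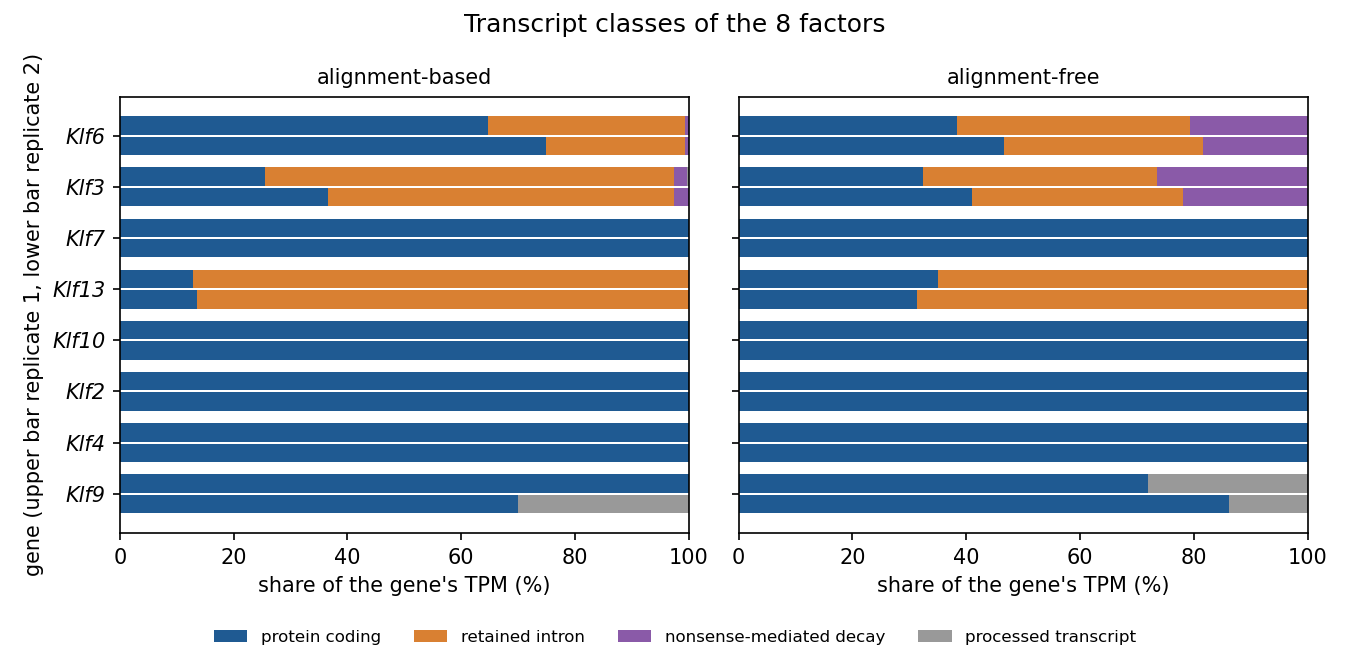
Share of each gene's TPM (%) given to each annotated transcript class, in replicate 1 (upper bar) and replicate 2 (lower bar), from the alignment-based (left) and the alignment-free tables (right). Retained-intron isoforms fill most of the bar of Klf13 in all 4 cases, from 64.9% to 87.1%, and more of the bar of Klf3 in the alignment-based than in the alignment-free tables.

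The retained-intron isoform of Klf13, Klf13-203, is a single exon of 934 bases that lies wholly in intron 1 of the main coding isoform, 1635 bases past the end of exon 1, in an intron of 46169 bases. It was at 26.9 and 38.2 TPM, from 312 and 411 expected counts. Klf13-201, which holds both coding exons, was at 3.21 and 4.19 TPM, although it had a like number of counts, 338.44 and 398.89, over a length of 6396 bases. A stretch of 120 bases that begins 150 bases into Klf13-203 (chr7:63936063-63936182, mm10, minus strand) shows the intron sequence by which this isoform is counted.
Klf13-203: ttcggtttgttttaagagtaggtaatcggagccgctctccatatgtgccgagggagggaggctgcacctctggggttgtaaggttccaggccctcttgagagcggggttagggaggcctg
Counted in reads, the isoform held 48.9 ± 1.76% of the Klf13 counts (SD, n = 2). Because it has no base in common with the exons of Klf13-201, the TPM of the gene sums a short piece of intron and a long spliced transcript, and the isoforms annotated as coding reached 3.99 and 6.00 TPM.

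In Klf3 the intron reads were divided over a pair of isoforms. Klf3-204, of 2749 bases, runs 2489 bases past the end of exon 2 into an intron of 5043 bases, and was at 29.4 and 31.6 TPM. Klf3-203, of 4016 bases, begins 885 bases ahead of exon 2 and runs 2400 bases past the end of exon 4 into an intron of 4080 bases, and was at 22.6 and 28.3 TPM. The main coding isoform Klf3-201, of 5221 bases, was lower in TPM than either, at 16.4 and 22.9 TPM. In counts Klf3-201 lay between them in replicate 1 and above both in replicate 2, at 1397.14 and 1763.42. Klf3-204 had 1255.95 and 1225.99 counts and Klf3-203 had 1458.16 and 1652.4. The places where Klf3-204, Klf3-203 and the retained-intron isoform of Klf6 cross an exon end are shown, with the intron in capitals. They are shown because reads over them separate the unspliced from the spliced form.
Klf3-204 (chr5:64816816-64816845, plus strand): gaccctgtctcggtgGTAAGCTGCCCCAAA
Klf3-203 (chr5:64823015-64823044, plus strand): agccttgttgcaagaGTAAGTATACTTAGG
Klf6-202 (chr13:5864753-5864782, plus strand): GTTCCTTTTGCACAGacctgcctggagttg
The introns begin with GT after both exon ends of Klf3, and the Klf6 intron ends with AG.

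Klf6-202, the retained-intron isoform of Klf6, has 799 bases, of which 90 lie ahead of exon 2 and 8 past exon 3, while the other 701 are exon sequence of Klf6-201. It was at 59.2 and 57.5 TPM, whereas the coding isoform Klf6-201 was at 111 and 176 TPM. The libraries therefore differed in Klf6-201 and hardly in Klf6-202. In counts, Klf6-202 held 548.91 and 498.14 of the reads of the gene (a mean of 5.58%), with a posterior SD of 24.46 and 23.24 counts that the program gives for reads it could not place with certainty. Summed over coding isoforms alone, the order of the factors changed to Klf6 at 143 TPM, Klf7 at 47.7, Klf3 at 27.2, Klf10 at 5.28, Klf13 at 4.995, Klf2 at 2.04, Klf4 at 0.245 and Klf9 at 0.155 TPM. In that order Klf10 (6.03 and 4.52 TPM) and Klf13 (3.99 and 6.00 TPM) overlapped, as did Klf4 and Klf9.

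Klf7, which has no isoform annotated as retained intron, was divided between Klf7-202, at 22.8 and 27.9 TPM, and Klf7-201, at 21.7 and 20.8 TPM. In counts the longer Klf7-202, of 7662 bases, held 87.6 ± 1.82% (SD, n = 2). Klf3-206, a coding isoform of 809 bases at the 3′ end of Klf3, was at 1.79 and 12.8 TPM in replicates 1 and 2, from 16.92 and 112.43 counts with posterior SDs of 8.96 and 13.42. Of the isoforms at 10 TPM or more in either library of the alignment-based table, it had the largest fold between the libraries. In the alignment-free tables it was at 8.49 and 16.1 TPM.

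**Figure D3:**
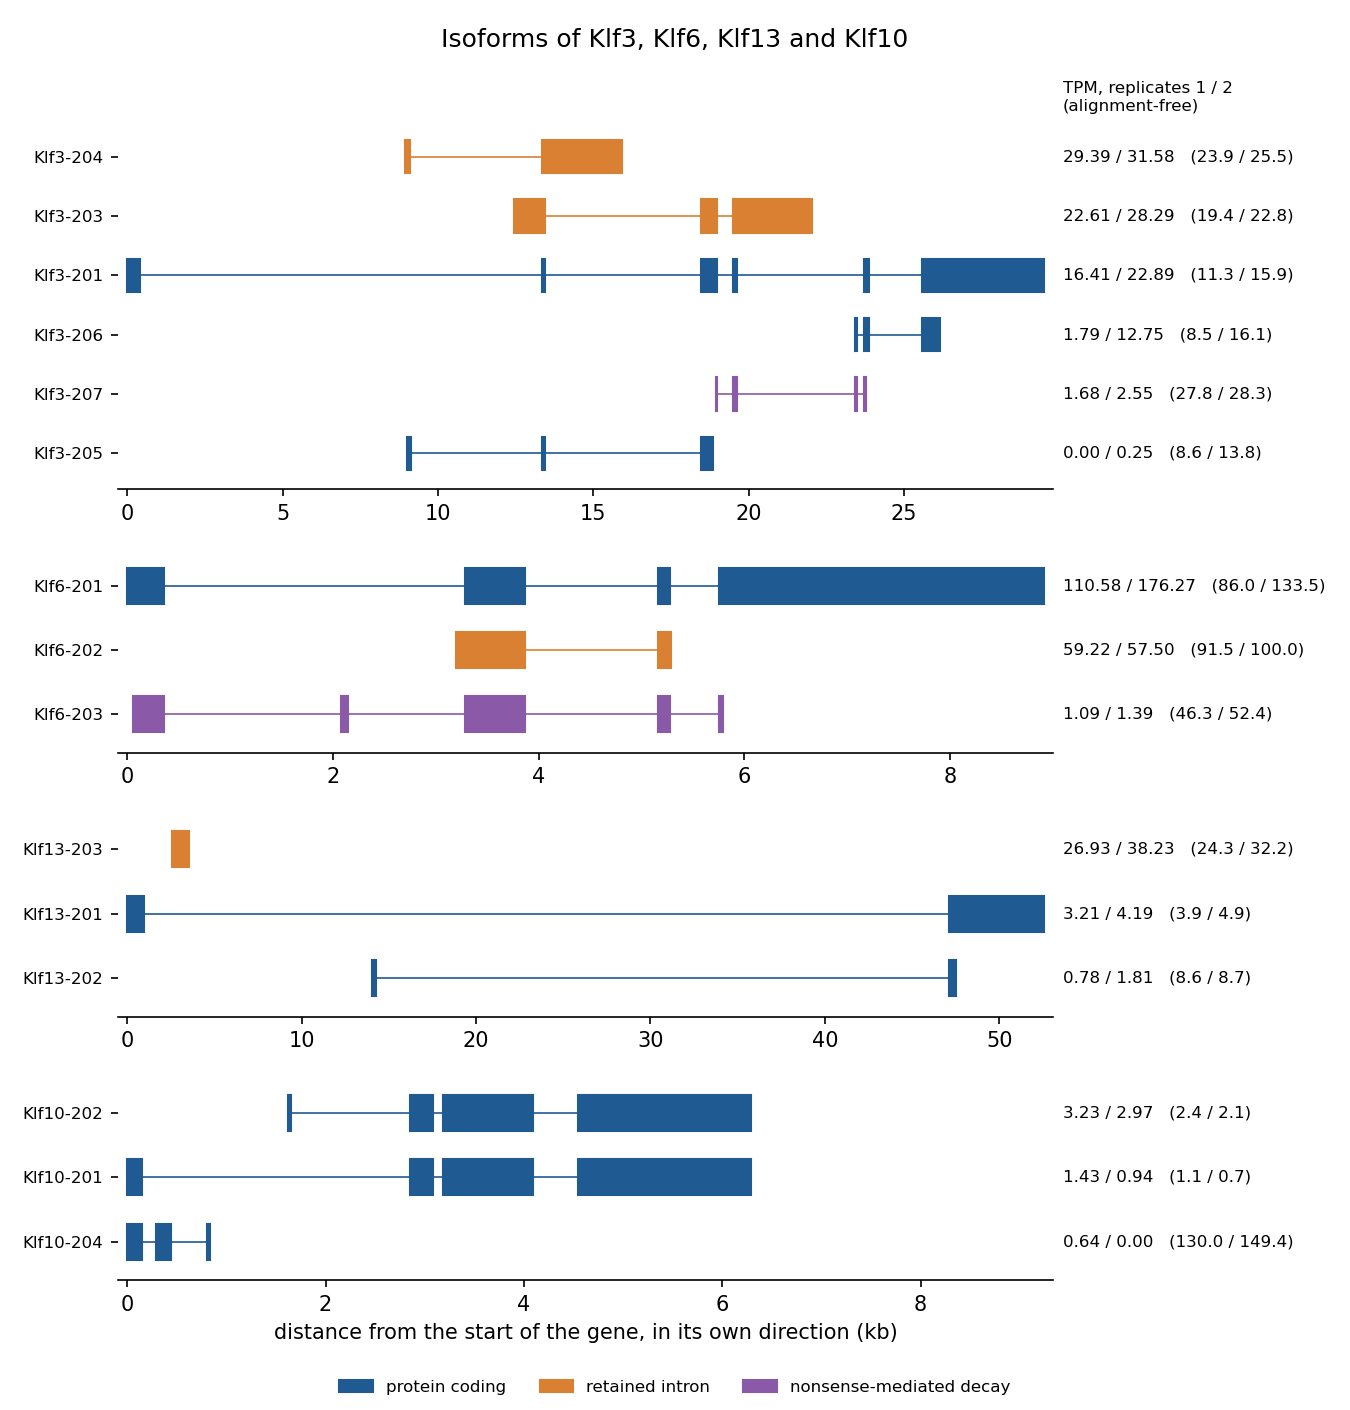
Isoforms of 4 factors that held at least 10% of the gene's TPM in either library or program, or that are the main coding isoform, drawn to scale by distance from the gene start in kb, with exons as boxes and introns as lines. The numbers at the right give TPM in replicates 1 and 2 (alignment-free in brackets), and the intron isoform Klf13-203 at 26.93 and 38.23 TPM stands over Klf13-201 at 3.21 and 4.19 TPM.

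Klf10 was the member with the widest gap in TPM between the programs. It had 838.46726 and 787.96696 estimated counts and 138 and 156 TPM in the alignment-free tables, against 225 and 174 expected counts and 6.03 and 4.52 TPM in the alignment-based ones. Klf4, at low counts, also differed, with 48.70728 and 46.0792 estimated against 6 and 14 expected counts. The mean levels of Klf10 were 27.9-fold apart, whereas the median gene of 9267 protein-coding genes was 1.28-fold higher in the alignment-free tables. A gap of 10-fold or more was found for 1 of the 6 factors at a mean of 1 TPM or more, compared with 0.486% of those genes, and 5 of the 9267, Klf10 included, had a gap at least as wide as that of Klf10. The isoform Klf10-204 carried the gap: it took 130 and 149 TPM in the alignment-free tables, and 1.00 and 0 counts in the alignment-based ones. This isoform has 326 bases in 3 exons, of which 178 bases lie in an intron of the main coding isoform Klf10-201. Both isoforms share exon 1, and the junctions with their second exons, which are in capitals, differ.
Klf10-201: ctccagcaagcttcgGAGGGGAAAATGGAA
Klf10-204: ctccagcaagcttcgGCTGGAATATCATCG
Without Klf10-204, Klf10 was at 8.42 and 6.80 TPM in the alignment-free tables and at 5.39 and 4.52 TPM in the alignment-based ones. In both, Klf10-202 and Klf10-201 were then the isoforms with the most counts, and in the alignment-based table they held 68.1% and 26.9% of the reads of the gene. The split between them is uncertain. Klf10-202 had 147.21 and 123.06 counts with posterior SDs of 31.21 and 28.49, and Klf10-201 had 68.42 and 40.83 with 31.38 and 29.2.

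Other short isoforms of the factors were also higher in the alignment-free tables. Klf3-207, of 298 bases and annotated to undergo nonsense-mediated decay, was at 27.8 and 28.3 TPM there and at 1.68 and 2.55 TPM in the alignment-based table. Klf6-203, of the same class, was at 46.3 and 52.4 against 1.09 and 1.39 TPM. Klf13-202, of 599 bases, was at 8.62 and 8.71 against 0.78 and 1.81 TPM. The effective length that each program divides by differed too, at 90.64 and 142.814 bases for Klf10-204 in replicate 1, and its part in these gaps was not tested.

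Several of the loci hold other annotated genes, of which some share exon bases with the factor and others lie in its introns. C230096K16Rik, a transcript of 1722 bases in the annotation class TEC on the same strand as Klf3, begins 223 bases past the end of exon 1 of Klf3-201, in its first intron (chr5:64804014-64805735, mm10). It had 1090 and 1153.97 expected counts of its own, or 43.4 and 50.3 TPM. On the opposite strand of Klf3, Gm20033 had 49.4 and 67.22 counts. E030018B13Rik, on the opposite strand in the long intron of Klf13, had 118 and 143 counts, and Gm27252 had 11 and 20. No exon of a Klf3 or Klf13 isoform lies within C230096K16Rik, E030018B13Rik or Gm27252. Each of them had a posterior SD of 0 counts in replicate 1. For Klf7, the opposite-strand gene Gm26649 shares exon bases with its 3′ end and had 51.41 counts in replicate 1 and 5.73 in replicate 2. The posterior SD of the Klf7 count was 19.29 and 12.03, against counts of 3363.59 and 3600.27. Gm13748, also opposite Klf7, had 3 and 0 counts, but 336 and 335 in the alignment-free tables, and the microRNA genes Mir6899 and Mir1192, inside Klf7 and Klf9, had 0 in the alignment-based table. No source used here says whether the counting took strand into account, so opposite-strand genes that share exon bases may hold each other's reads.

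Between the libraries, 5 of the 6 factors that had at least 10 counts in each were higher in replicate 2, compared with 49.8% of all 13247 such genes. The log2 ratio of replicate 2 over replicate 1, on counts scaled by the trimmed mean of M-values, was 0.62 for Klf6, with a 95% counting interval from 0.58 to 0.66. It was 0.45 for Klf13 (0.30 to 0.60), 0.33 for Klf3 (0.27 to 0.39) and 0.22 for Klf7 (0.16 to 0.29). The interval held 0 for Klf2, at 0.45 (-0.12 to 1.04), and for Klf10, at -0.24 (-0.54 to 0.05). None of the 6 was 2-fold apart between the libraries, compared with 7.25% of all genes, and 1 of the 6, Klf6, was at least 1.5-fold apart (1.54-fold), compared with 24.1%. This call was lost with library totals (1.47-fold) and with alignment-free counts (1.39-fold). Klf4 and Klf9 had too few counts to enter. These ratios compare 2 libraries of 1 condition and come with no p-value, because there is 1 library on each side.

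**Figure D4:**
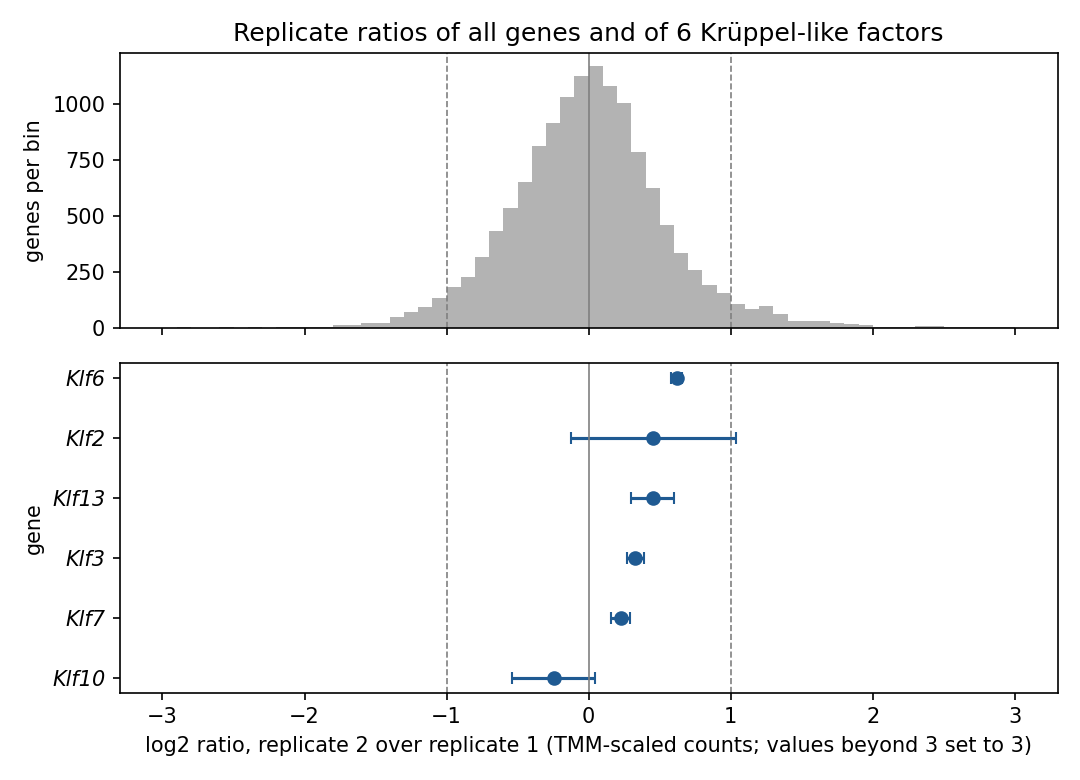
Log2 ratio of replicate 2 over replicate 1 of TMM-scaled expected counts, as genes per bin for all 13247 genes that had 10 counts or more in each (top) and for 6 factors with 95% counting intervals (bottom), with dashed lines at 2-fold. All 6 points lie between the dashed lines, and Klf10 is the lowest at -0.24.

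The median ratio of the 6 factors was 0.39, against -0.003 over all genes. Beside it, the macrophage markers Adgre1, Itgam, Csf1r and Lyz2 moved the other way between the libraries, at -1.28, -1.66, -0.88 and -0.91, while Cd68 and Mertk were at 0.08 and -0.07. The amount of starting RNA also differed between the libraries, and it cannot be told apart from them; the part of either in the ratios of the factors was not tested.

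The rest of the family was low. Of the 9 other KLF genes checked, 0 reached 1 TPM in both libraries, compared with 40.1% of protein-coding genes. Klf11, Klf16 and Klf8 had between 12 and 29 counts. The other 6, Klf1, Klf5, Klf12, Klf14, Klf15 and Klf17, had 0 counts in both, which allows up to 3 counts, or 1.63e-05% of the counts of replicate 1 and 1.7e-05% of those of replicate 2. By the alignment-free program 2 of the 9 were at 1 TPM or more in both libraries, Klf12 at 10.4 and 12.0 TPM and Klf11 at 3.29 and 3.92 TPM, against 0.46 and 0.25 TPM for Klf11 in the alignment-based ones. Of the 9 SP genes, whose factors carry related fingers and compete for GC boxes, 4 were at 1 TPM or above in both libraries. At 10 TPM was 1 of the 9, the gene of the broadly expressed factor Sp3 at 17.7 and 16.3 TPM. The shares of all protein-coding genes at these levels were 40.1% and 17.9%. Sp5, Sp7, Sp8 and Sp9 had 0 counts in both. By the alignment-free program 2 of the 9 SP genes were at 10 TPM in both libraries, Sp3 and Sp1. Sp1 was at 11.4 and 19.6 TPM there, against 9.16 and 9.46 TPM in the alignment-based table.

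The corepressor and coactivator genes checked were all present. All 10 corepressor and coactivator genes were at 1 TPM or more in both libraries, and 7 were at 10 TPM or more. Among all protein-coding genes these shares were 40.1% and 17.9%. The deacetylase gene Hdac1 was at 44.3 and 41.3 TPM, and the acetyltransferase genes Ep300 and Crebbp were at 42.0 and 32.1 and at 25.5 and 31.3 TPM. Sin3b was at 28.6 and 35.1 TPM and Sin3a, the partner of Klf9, Klf10 and Klf13, at 14.2 and 10.3 TPM. Ctbp1 and Ctbp2, the partners of Klf3, were at 19.6 and 15.9 TPM and at 11.4 and 11.5 TPM.

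All 15 genes that act upstream of the factors or in their turnover were at 1 TPM or more in both libraries. Of these, 9 were at 10 TPM or more. Among all protein-coding genes the shares were 40.1% and 17.9%. The kinase gene Map2k5, of the pathway through Erk5 and the MEF2 factors that drives Klf2, was at 21.7 and 20.5 TPM. The end points of that pathway, Mef2a, Mef2c and Mef2d, were at 78.5 and 120, at 26.9 and 20.8, and at 18.2 and 18.3 TPM. The glucocorticoid receptor gene Nr3c1, whose product induces Klf9, was at 64.5 and 72.7 TPM. Of the TGF-β pathway that induces Klf10, Tgfbr1 was at 21.2 and 46.2 TPM, Smad2 at 18.8 and 20.5 and Smad4 at 10.7 and 13.6 TPM. Under 10 TPM were Tgfbr2, at 6.89 and 5.28 TPM, and Smad3, at 5.22 and 9.65 TPM. Wwp1, a ubiquitin ligase that marks Klf2 for destruction, was at 23.1 and 25.7 TPM.

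Of 11 genes reported as targets of the factors, 4 were at 10 TPM or more in both libraries. No others were at 1 TPM or more in both. Among all protein-coding genes 17.9% were at 10 TPM and 40.1% at 1 TPM. The chemokine gene Ccl5, a target of Klf13 in T cells, was the highest at 738 and 925 TPM. Lgals3, which encodes a galectin and is repressed by Klf3, was at 69.9 and 176 TPM, Tgfb1 at 41.1 and 44.6 TPM and the mannose receptor gene Mrc1 at 20.4 and 34.2 TPM. Nos3 and Retnla, targets of Klf2 in endothelium and of Klf4 in alternatively activated macrophages, had 0 counts in both libraries. With 1 condition, none of these levels bears on which factor acts on which gene.

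**Figure D5:**
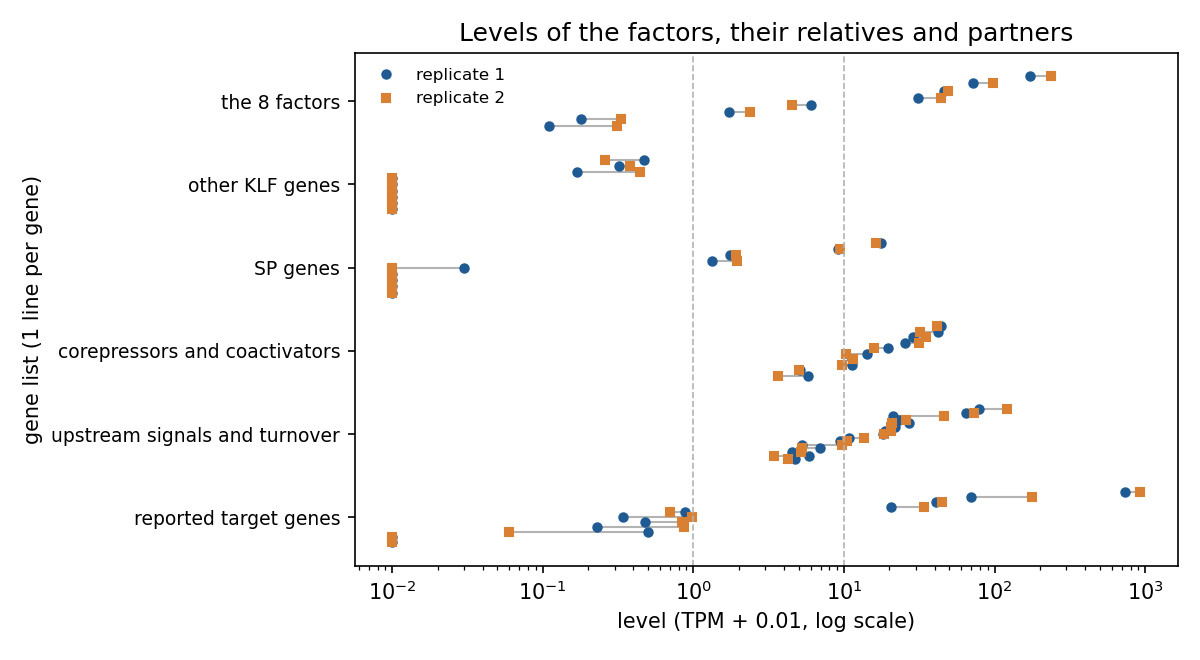
Level of every gene of 6 lists in TPM with 0.01 added (log axis) in replicate 1 (circles) and replicate 2 (squares), 1 line per gene, with dashed lines at 1 and 10 TPM. All cofactor and upstream genes lie to the right of 1 TPM, whereas the other KLF genes all lie to the left of it.

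The upstream sequences of the genes were compared because the levels here are those of RNA at the template. The RefSeq table of GRCm38.p6 promoters held 7 of the 8 genes, all but Klf10, and the 250 bases ahead of each RefSeq start were searched on both strands, with overlapping matches counted for each motif. The GC box GGGCGG, an element that the factors themselves bind, was found in 6 of the 7 windows and in 32.7% of 32851 windows of that length. Klf3 had 6 matches, Klf4 4, Klf13 3, Klf2 2 and Klf6 and Klf7 1 each, while Klf9 had none. The letters CACCC were in 5 of the 7 (52.0% of all windows), CCAAT in 3 (33.9%), TGACG in 4 (17.8%), CACGTG in 2 (6.02%) and TATAAA in 0 (12.4%). A κB site was in 0 of the 7 and in 3.9% of all windows, a serum response CArG box in 0 and in 1.47%, and a MEF2 site in 1, that of Klf2, and in 2.92%. All 250 bases of the Klf7 window and 133 of the Klf3 window lie inside the gene as GENCODE annotates it. The median GC content was 71.2% in the 7 windows and 52.4% over all. The windows of Klf6, the highest member, and of Klf2, which has the MEF2 site, are printed up to the annotated gene start, with GC boxes and the MEF2 site in capitals.
Klf6 (chr13:5861239-5861481, GRCm38.p6, plus strand): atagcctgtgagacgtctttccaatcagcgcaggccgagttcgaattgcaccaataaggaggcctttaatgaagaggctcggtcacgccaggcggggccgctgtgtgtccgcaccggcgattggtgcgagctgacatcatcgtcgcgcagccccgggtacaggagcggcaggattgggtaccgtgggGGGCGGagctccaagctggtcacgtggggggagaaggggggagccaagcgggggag
Klf2 (chr8:72318812-72319032, GRCm38.p6, plus strand): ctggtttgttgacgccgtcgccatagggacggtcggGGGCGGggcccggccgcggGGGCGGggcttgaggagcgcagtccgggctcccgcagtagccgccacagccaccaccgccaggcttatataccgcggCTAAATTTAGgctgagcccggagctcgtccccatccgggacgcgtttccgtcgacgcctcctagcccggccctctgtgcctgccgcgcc
A match is a run of letters and not a bound site, and no binding was measured in these samples.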

How the data were processed

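The deposited expected counts and TPM per gene and transcript came from alignments to mm10 with GENCODE M21, per the submitters' description files. The deposited estimated counts and TPM of a second table are called alignment-free here, a name inferred from its column headers. The sources used here name no program, version or strand setting. Entries without a gene name (0.305% and 0.262% of counts) were left out. Alignment-free values were summed per gene.

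Levels are TPM per library, with mean and SD (n = 2). Ratios used rounded expected counts and TMM scaling (edgeR 4.0.16) over genes whose counts were 10 or more in each library, with exact binomial (Clopper-Pearson) 95% intervals, which cover counting error only. DESeq2 1.42.0 size factors were an alternative. The ratio step was tested on simulated data. Named are all 8 factors, isoforms with at least 10% of a factor's TPM, overlapping genes, and list genes at 10 TPM or at 0 counts in both libraries. Other genes and isoforms named were picked after their values were seen. Members and lists were chosen with earlier results of these data known.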

Additional observations from a re-analysis of the deposited data

How the results depend on the processing

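The median level of the 8 factors was 21.4 TPM. It was 45.7 TPM in the alignment-free tables, 79.2 TPM with TPM scaled over protein-coding genes, 26.1 CPM without division by length, and 5.13 TPM over coding isoforms alone, a setting chosen after seeing the data. The cause of these shifts beyond the scales themselves was not tested. With Klf10-204 left out of the alignment-free tables, also chosen after seeing the data, it was 24.9 TPM, with posterior mean TPM 20.8, and without 1 library between 18.5 and 24.4 TPM. None of the 6 factors tested was past 2-fold between the libraries, also with DESeq2 size factors, library totals or alignment-free counts. Of all genes between 4.77% and 7.52% were. Without a filter on low counts 2 of 8 were, Klf4 and Klf9, at 6 and 14 and at 7 and 15 counts, compared with 28.7% of all genes. Past 1.5-fold was 1 of the 6, Klf6, with the filter, 0 of 6 with library totals, and 3 of 8 without a filter. Of all genes 24.1%, 24.8% and 45% were, in that order. With alignment-free counts 1 of 8 was, Klf9 at 1.88-fold, compared with 18.8% of all genes. For the 6 factors tested, no sign of a single ratio changed in 24 alternatives. Klf4, which was not among the 6, had a log2 ratio of 1.29 without a filter and of -0.006 with alignment-free counts. Of the factors, 2 had over 50% of their TPM on retained-intron isoforms, and 1 did by share of counts (Klf3 at 63.0%, Klf13 at 48.9%) or in the alignment-free tables (Klf13 at 66.7%, Klf3 at 39.2%). The median shares over genes with such an isoform were 45.1%, 28.4% and 44.5%, in the same order. Of 54 relatives, partners and targets 21 were at 10 TPM in both libraries, compared with 17.9% of protein-coding genes. Under the alternatives between 22 and 31 were. No ratio exists with a replicate left out. No paired analysis was possible because there is 1 group. Depth limits Klf4 and Klf9, at 15 counts or fewer.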
